A study of Mus musculus with 4 samples.

Results

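The genes described here are 41 mouse genes that act in mitosis and at the kinetochore, chosen as a named list and found by symbol among the 30731 genes counted in all 4 libraries of the series. RNA was sequenced from 3 kinds of innate lymphoid cell, lymphocytes without rearranged antigen receptors, in cells also taken for Hi-C, which maps contacts between parts of the genome. The group 3 cells were MNK-3, a wild-type line with ILC3-like features that was derived from thymocytes of NIH-Swiss fetuses at day 15 and grown with IL-7 plus IL-15 at 10 ng/ml, with 2 libraries. The group 2 cells (ILC2) were from the bone marrow of wild-type C57BL/6 mice of 8 to 12 weeks and had grown out in 4 cytokines at 10 ng/ml each, IL-33 and IL-25 with IL-2 and IL-7, with 1 library. The group 1 cells were natural killer (NK) cells from the spleen of wild-type C57BL/6 mice of 8 to 12 weeks, with 1 library and no culture described. Mice were pooled for ILC2 and for NK, and their number is not given in the sources used here. MNK-3 stands for group 3 as 1 line, and cell type coincides with tissue, culture and, for MNK-3, strain, so these cannot be told apart.

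In mitosis the copied chromosomes condense, attach to spindle microtubules through kinetochores built on the centromere, and are held until every kinetochore is attached. The spindle checkpoint keeps the anaphase-promoting complex off until then, after which cyclin B and securin are destroyed, separase opens cohesin and the cell divides. Many of these genes are transcribed mainly in G2 and M phase, when the MuvB complex with B-Myb (Mybl2) and FOXM1 acts on promoters that hold a cell cycle genes homology region (CHR), and the trimeric factor NF-Y acts on CCAAT boxes in the same promoters. In quiescent cells the DREAM complex holds these genes down. Resting lymphocytes carry little of their RNA, and cytokine-driven division brings it up.

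Promoter sequence was available for 33 of the 41 genes in RefSeq (GRCm38.p6), as 36 windows of 250 bases before a start. Spc24, Aurkb, Incenp, Ccna2, Cdc25c, Tpx2, Kif20a and Foxm1 had no entry. A CHR element was searched as TTTGAA or TTCGAA and a CCAAT box as CCAAT, each on both strands, and no CHR element overlapped a CCAAT box in the members' windows. Within 100 bases before the start, 22.2% of the members' windows held a CHR element, against 6.13% of all 32851 windows. A CCAAT box lay there in 63.9% of the members' windows, against 18.9% of all. Both were present within 100 bases in 7 windows, those of Top2a, Kif11, Prc1, Espl1, Cdk1, Cdc20 and Ube2c, or 19.4% of the members' windows against 1.14% of all. An E2F site searched as GGCGGGAA or GGCGCGAA was in 0 of the 36 windows and in 2.27% of all windows. In other lists, both motifs were within 100 bases in 10.3% of the 78 windows of other mitosis genes and in 0 of the 29 windows of DNA replication genes, of which 24.1% held an E2F site. The 4 of these 7 with the highest CPM in MNK-3 are shown as examples of windows with both motifs; capitals mark each CHR element and each CCAAT box on either strand (TTCAAA and ATTGG are the reverse complements). Top2a lies at chr11:99024190-99024439 on the minus strand, Kif11 at chr19:37376132-37376381, Prc1 at chr7:80294226-80294475 (the second of its starts) and Espl1 at chr15:102296043-102296292, all 3 on the plus strand.
Top2a: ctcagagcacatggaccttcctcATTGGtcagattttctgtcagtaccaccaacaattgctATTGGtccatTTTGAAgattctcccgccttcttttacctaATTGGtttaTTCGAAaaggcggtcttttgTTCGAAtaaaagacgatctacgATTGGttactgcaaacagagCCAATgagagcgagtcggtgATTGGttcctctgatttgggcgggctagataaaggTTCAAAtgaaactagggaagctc
Kif11: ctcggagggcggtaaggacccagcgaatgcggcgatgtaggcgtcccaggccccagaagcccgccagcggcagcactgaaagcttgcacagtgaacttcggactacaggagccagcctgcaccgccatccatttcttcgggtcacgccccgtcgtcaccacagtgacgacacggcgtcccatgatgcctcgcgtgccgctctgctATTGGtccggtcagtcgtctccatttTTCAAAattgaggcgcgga
Prc1: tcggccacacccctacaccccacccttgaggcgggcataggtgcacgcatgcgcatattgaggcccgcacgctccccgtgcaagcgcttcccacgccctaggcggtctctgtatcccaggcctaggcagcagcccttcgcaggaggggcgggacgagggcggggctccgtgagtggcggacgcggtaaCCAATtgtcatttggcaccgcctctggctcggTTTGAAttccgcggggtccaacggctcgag
Espl1: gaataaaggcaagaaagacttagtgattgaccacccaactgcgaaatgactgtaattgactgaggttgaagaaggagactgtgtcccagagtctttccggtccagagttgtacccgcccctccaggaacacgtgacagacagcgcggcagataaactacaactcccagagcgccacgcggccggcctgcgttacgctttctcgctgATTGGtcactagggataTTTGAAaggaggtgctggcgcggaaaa
In Kif11 the CCAAT box, read on the reverse strand, lay 45 to 41 bases before the start and the CHR element 19 to 14 bases before it. Espl1 had the same order, with the box at 44 to 40 and the element at 27 to 22 bases. Top2a held 4 CHR elements and 6 CCAAT boxes in its window, the most of both together among the 33 genes. A match describes letters only, and no binding was measured in these cells.

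**Figure D1:**
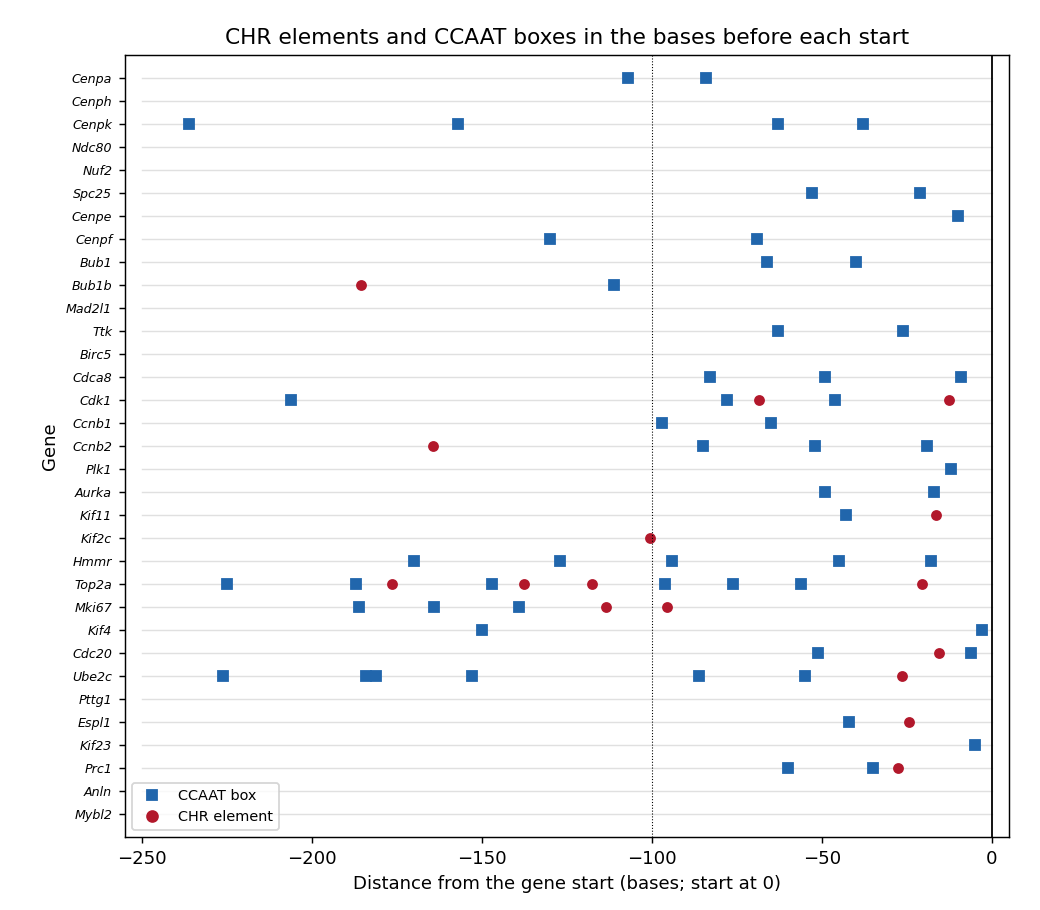
Positions of CHR elements (circles) and CCAAT boxes (squares) in the 250 bases before each RefSeq start, in bases from the start, for the 33 genes with a window; genes with several starts have all their windows on one row, each measured from its own start. The dotted line marks 100 bases before the start, and most CCAAT boxes lie to its right.

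Reads in the shared genes came to 25617762 in MNK-3 replicate 1, 15177345 in MNK-3 replicate 2, 9298162 in ILC2 and 4637812 in NK, and levels are given as reads per 1000000 of these reads (CPM). Each library was led by the markers of its own label: the 6 ILC3 markers summed to 2052 and 2979.6 CPM in MNK-3 (423 in ILC2, 101 in NK), the 6 ILC2 markers to 5787 CPM in ILC2, and the 6 NK markers to 6981 CPM in NK. MNK-3 replicate 1 stood apart from replicate 2. Of its reads, 76.5% named no gene, against 26.6% in replicate 2, 25.9% in ILC2 and 49.3% in NK. All 6 T cell, all 5 B cell and all 6 myeloid markers were detected in it, with sums of 111, 33.7 and 38.0 CPM, against 5.21, 1.58 and 3.16 CPM in replicate 2. The same sums were 11.9, 40.1 and 13.7 CPM in ILC2 and 31.5, 5.17 and 248 CPM in NK, of which Itgam made 233. Cd79b, Lyz2 and Itgam were at 0 in MNK-3 replicate 2. Low levels in replicate 1 were not limited to these markers: 95.6% of the shared genes were detected in it, against 70.4% in replicate 2. The 12465 tested genes under 1 CPM in replicate 2 were higher in replicate 1 by a median of 2.42 on the log2 scale. The source of these reads, and its part in the lower levels of the 41 genes in replicate 1, was not tested. Nothing in the labels says that the MNK-3 libraries came from separate cultures, and the pair differed beyond what counting error allows (a chi-square of 79.7 per degree of freedom), so they count as 2 libraries whose spread may be technical.

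All 41 genes had more CPM in MNK-3 and in ILC2, both grown in cytokines, than in NK. Together they took 1.13% and 1.53% of the shared-gene reads in the MNK-3 libraries and 0.793% in ILC2, against 0.0738% in NK, so that the summed level was 18.02 times as high in MNK-3 as in NK, and 10.7 times as high in ILC2 as in NK. The median gene of the list had 133 and 168 CPM in the MNK-3 libraries, 102 CPM in ILC2 and 8.19 CPM in NK, where 24 of the 41 were under 10 CPM. Fewer cells in division and less of these RNAs per cell cannot be told apart in bulk RNA. Both MNK-3 libraries lay above NK for 41 of 41 genes, and ILC2 lay above NK for 41 of 41. Between the cultured cells the order was less uniform: both MNK-3 libraries lay above ILC2 for 34 genes and below it for 3, and ILC2 lay between them for 4. Replicate 1 was below replicate 2 for 37 of the 41 genes. Over all 41 the median of replicate 1 over replicate 2 was -0.34 on the log2 scale (range -0.55 to 0.56). It was -0.28 over the 2686 genes at 100 CPM or more.

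**Figure D2:**
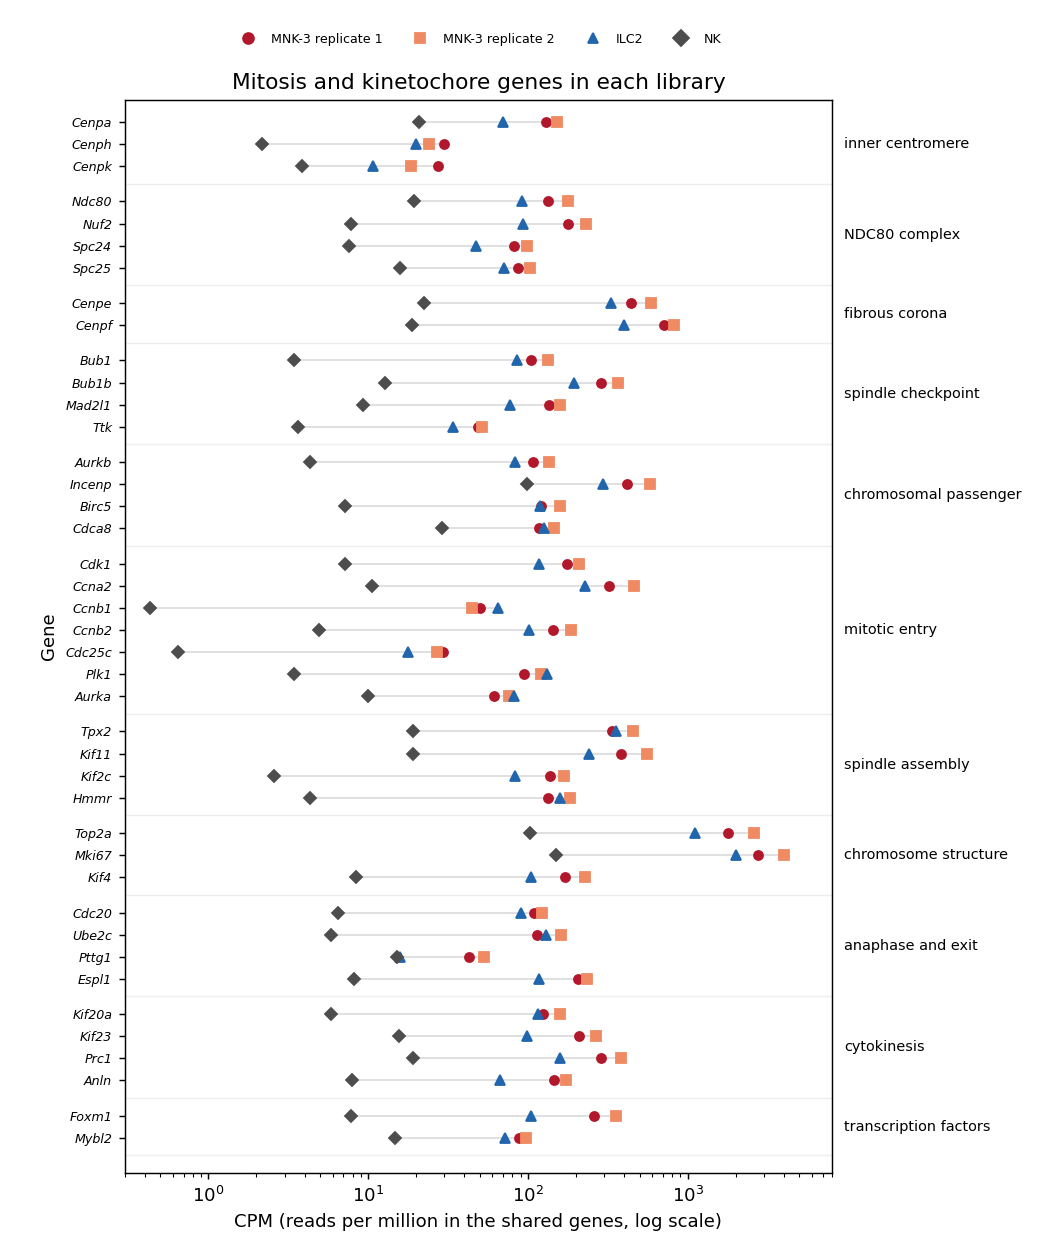
Level of each of the 41 genes in each library, in CPM on a log axis, grouped by role; circles and squares are the MNK-3 replicates, triangles ILC2 and diamonds NK. The NK diamond is the leftmost mark in every row, by the least for Pttg1 (15.9 CPM in ILC2 and 15.1 CPM in NK).

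Scaled by exon length as well as depth (TPM, which sums to 1000000 in each library), the median gene of the list stood at the 95.3 and 95.5 percentile of all shared genes in MNK-3, at 92.2 in ILC2 and at 68.5 in NK. Mki67, which encodes the Ki-67 protein that coats mitotic chromosomes and is the routine marker of cycling cells, had the highest TPM of the list in MNK-3 and ILC2. Top2a, the topoisomerase that untangles sister DNA, came second in each of them. Mki67 and Top2a held 40.1% and 43.3% of the list's reads in MNK-3, 39.4% in ILC2 and 34.3% in NK. In NK the highest TPM was that of Incenp, with 97.5, ahead of Mki67 with 63.5 and Top2a with 48.8. Cenpk had the lowest TPM of the list in MNK-3 replicates 1 and 2 (21.0 and 14.8) and in ILC2 (8.14), and Ccnb1 in NK (0.435).

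Mki67 had 2745 and 4011 CPM in the MNK-3 libraries and 2014 CPM in ILC2, against 150 CPM in NK. Top2a had 1789.7 and 2607 CPM in the MNK-3 libraries and 1106 CPM in ILC2, against 103 CPM in NK. Kif4, a chromokinesin that works on chromosome arms and later in the spindle midzone, had 171 and 226 CPM in the MNK-3 libraries, 104 CPM in ILC2 and 8.41 CPM in NK. In these 3 genes the MNK-3 libraries were above ILC2, and ILC2 was far above NK.

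At the inner centromere, Cenpa, the histone H3 variant that marks the centromere, had 129 and 152 CPM in the MNK-3 libraries, 69.7 CPM in ILC2 and 20.9 CPM in NK. It stayed well detected in NK, with 97 reads. Cenph and Cenpk belong to the constitutive centromere-associated network that joins centromeric chromatin to the outer kinetochore. Cenph had 29.8 and 24.05 CPM in the MNK-3 libraries, 20.004 CPM in ILC2 and 2.16 CPM in NK, and Cenpk had 27.5 and 18.5 CPM in the MNK-3 libraries, 10.8 CPM in ILC2 and 3.88 CPM in NK. Both were among the 4 genes of the list with more CPM in MNK-3 replicate 1 than in replicate 2; the others were Ccnb1 and Cdc25c.

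The NDC80 complex, the main microtubule coupler of the outer kinetochore, has 4 subunits, and all 4 were in the list. Ndc80 had 133 and 177 CPM in the MNK-3 libraries, 92.3 CPM in ILC2 and 19.4 CPM in NK. Its partner Nuf2 had 177 and 229 CPM in the MNK-3 libraries, 92.7 CPM in ILC2 and 7.76 CPM in NK. Per exon length these partners, which form the microtubule-binding end as a pair, were nearly level in ILC2, at 56.3 TPM for Ndc80 and 57.9 TPM for Nuf2, while NK had 12.7 TPM of Ndc80 and 5.21 TPM of Nuf2. For the inner pair, Spc24 had 81.3 and 98.5 CPM in the MNK-3 libraries, 47.1 CPM in ILC2 and 7.55 CPM in NK, and Spc25 had 86.9 and 103 CPM in the MNK-3 libraries, 70.6 CPM in ILC2 and 15.7 CPM in NK. The log2 ratio of MNK-3 to NK ran from 2.55 (Spc25) to 4.63 (Nuf2) among the subunits, with 0.5 CPM added to both groups.

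On the fibrous corona, the outermost layer of an unattached kinetochore, Cenpe, a plus-end motor that carries chromosomes to the spindle equator, had 439 and 587 CPM in the MNK-3 libraries, 329 CPM in ILC2 and 22.2 CPM in NK. Cenpf, a large corona protein that binds dynein regulators, had 708 and 823 CPM in the MNK-3 libraries, 400.0 CPM in ILC2 and 18.8 CPM in NK. Per exon length Cenpe was the higher in every library, with 203 and 284 TPM in MNK-3, 151 TPM in ILC2 and 10.97 TPM in NK; Cenpf had 183 and 222 TPM in MNK-3, 103 TPM in ILC2 and 5.17 TPM in NK.

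Among the spindle checkpoint genes, Bub1b, which encodes the inhibitor BubR1, had 288 and 364 CPM in the MNK-3 libraries, 195 CPM in ILC2 and 12.7 CPM in NK. Mad2l1, whose product binds Cdc20 to hold the anaphase-promoting complex off, had 135 and 159 CPM in the MNK-3 libraries, 77.4 CPM in ILC2 and 9.27 CPM in NK. The kinase gene Bub1 had 104 and 134 CPM in the MNK-3 libraries, 85.6 CPM in ILC2 and 3.45 CPM in NK. Ttk, the kinase Mps1 that starts the signal, had 48.4 and 51.5 CPM in the MNK-3 libraries, 33.8 CPM in ILC2 and 3.67 CPM in NK. All 4 ran in the same order across the cell types, and none was at 2-fold or more between MNK-3 and ILC2.

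The chromosomal passenger complex corrects wrong attachments and later acts at the cleavage site. Its kinase Aurkb had 108 and 136 CPM in the MNK-3 libraries, 83.0 CPM in ILC2 and 4.31 CPM in NK, and the survivin gene Birc5 had 121 and 159.7 CPM in the MNK-3 libraries, 119 CPM in ILC2 and 7.12 CPM in NK. The scaffold gene Incenp and the borealin gene Cdca8 were less far apart between cultured cells and NK. Incenp had 417 and 583 CPM in the MNK-3 libraries, 297 CPM in ILC2 and 99.2 CPM in NK, and Cdca8 (borealin) had 118 and 145 CPM in the MNK-3 libraries, 126 CPM in ILC2 and 29.1 CPM in NK. The MNK-3 to NK ratio was thus 25.5-fold for Aurkb and 18.5-fold for Birc5, against 5.02-fold for Incenp and 4.46-fold for Cdca8, with 0.5 CPM added.

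Of the genes that drive mitotic entry, the kinase Cdk1 had 175 and 208 CPM in the MNK-3 libraries, 117 CPM in ILC2 and 7.12 CPM in NK. Its cyclins differed from each other. Ccna2 had 323 and 462 CPM in the MNK-3 libraries, 227 CPM in ILC2 and 10.6 CPM in NK, and Ccnb2 had 143 and 185 CPM in the MNK-3 libraries, 102 CPM in ILC2 and 4.96 CPM in NK. Ccnb1, the cyclin whose destruction ends mitosis, ran the other way between the cultured cells, with 49.9 and 44.4 CPM in MNK-3, 65.4 CPM in ILC2 and 0.431 CPM in NK, where it had 2 reads. Its ratio of CPM was 111 for MNK-3 over NK (95% counting interval 30.7 to 917) and 152 for ILC2 over NK (41.8 to 1255), intervals that cover counting error only. Cdc25c, the phosphatase that switches Cdk1 on, had 29.5 and 27.0 CPM in the MNK-3 libraries, 17.7 CPM in ILC2 and 0.647 CPM in NK, from 3 reads, which gives ratios of 44.2 (15.1 to 215) for MNK-3 and 27.4 (9.22 to 134) for ILC2 over NK. Ccnb1, Ccnb2 and Kif4 have annotated pseudogenes with which reads could be shared. Only pseudogenes named after a member were searched for, so other members may have some too.

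The polo kinase Plk1 had 94.3 and 121 CPM in the MNK-3 libraries, 132 CPM in ILC2 and 3.45 CPM in NK. Aurka, the centrosomal Aurora kinase, had 61.1 and 75.8 CPM in the MNK-3 libraries, 82.3 CPM in ILC2 and 9.92 CPM in NK. With Ccnb1 these were the 3 genes for which ILC2 exceeded both MNK-3 libraries, by log2 ratios of MNK-3 over ILC2 of -0.47 (Ccnb1), -0.30 (Plk1) and -0.26 (Aurka). None of these 3 differences passed the test.

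For spindle assembly, the bipolarity motor Kif11 (Eg5) had 384 and 558 CPM in the MNK-3 libraries, 241 CPM in ILC2 and 19.2 CPM in NK. Tpx2, which activates Aurora A at spindle microtubules, had 335 and 456 CPM in the MNK-3 libraries, 356 CPM in ILC2 and 19.0 CPM in NK. Hmmr, a spindle pole protein that works with Tpx2, had 133 and 183 CPM in the MNK-3 libraries, 159 CPM in ILC2 and 4.31 CPM in NK. Tpx2 and Hmmr thus had ILC2 between the MNK-3 libraries, as did Cdca8 and Ube2c. Kif2c (MCAK), which depolymerises microtubules at wrong attachments, had 137 and 168 CPM in the MNK-3 libraries, 83.0 CPM in ILC2 and 2.59 CPM in NK.

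At anaphase and mitotic exit, Cdc20, the activator of the anaphase-promoting complex, had 109.6 and 122 CPM in the MNK-3 libraries, 90.3 CPM in ILC2 and 6.47 CPM in NK. Its ubiquitin-conjugating enzyme Ube2c had 114 and 161 CPM in the MNK-3 libraries, 131 CPM in ILC2 and 5.82 CPM in NK. Espl1, the protease separase, had 206 and 234 CPM in the MNK-3 libraries, 117 CPM in ILC2 and 8.19 CPM in NK. Pttg1, the securin that holds separase inactive, did not follow its partner. It had 42.9 and 52.8 CPM in the MNK-3 libraries and 15.9 CPM in ILC2, against 15.1 CPM in NK from 70 reads, so that ILC2 and NK were nearly level (log2 ratio 0.07) while MNK-3 was above both. It had the smallest ratio of the list for MNK-3 over NK (log2 1.63) and for ILC2 over NK. For MNK-3 over ILC2 its ratio (log2 1.56) and that of Foxm1 (1.55) were the top pair of the list, and which of them was the larger changed with the scaling.

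In cytokinesis, Prc1, which bundles the antiparallel microtubules of the midzone, had 286 and 383 CPM in the MNK-3 libraries, 158 CPM in ILC2 and 19.2 CPM in NK. Kif23, the centralspindlin motor, had 208 and 266 CPM in the MNK-3 libraries, 99.4 CPM in ILC2 and 15.5 CPM in NK, and Anln (anillin), a scaffold of the contractile ring, had 145 and 173 CPM in the MNK-3 libraries, 66.8 CPM in ILC2 and 7.98 CPM in NK. These 3 were each at 2-fold or more in the MNK-3 mean over ILC2, with Prc1 under that in replicate 1 (log2 0.86). Kif20a, a midzone kinesin that brings the passenger complex there, was not, with 124 and 158 CPM in MNK-3, 115 CPM in ILC2 and 5.82 CPM in NK. On the opposite strand, Cdc23 overlaps 29.3% of the exonic bases of Kif20a and Tnnc2 overlaps 22.8% of those of Ube2c. Smaller overlaps were annotated for Kif4 (15.1%), Cdc25c (12.7%), Ccna2 (12.5%), Prc1 (11.1%), Plk1, Cdca8, Cenpk and Cdc20. Because the strand setting of the counting is not stated, reads of these pairs may not have been kept apart.

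Foxm1, the forkhead factor of G2 and M phase promoters, had 260.5 and 354 CPM in the MNK-3 libraries, 104 CPM in ILC2 and 7.76 CPM in NK. Mybl2, the B-Myb that joins MuvB, had 87.8 and 96.7 CPM in the MNK-3 libraries, 71.6 CPM in ILC2 and 14.7 CPM in NK. Both factors were lowest in NK, and the MNK-3 to ILC2 ratio was 2.94-fold for Foxm1 and 1.29-fold for Mybl2, with 0.5 CPM added.

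MNK-3 was set against NK to compare the cultured group 3 line with group 1 cells from the spleen. All 41 genes had at least 2-fold more CPM in MNK-3 with 10 CPM or more there, beside 16.2% of the 25283 genes tested. The 16.2% are 4102 genes, all of them among the 11582 at 10 CPM or more in any group. The median log2 ratio of the 41 was 4.45, beside 0.58 over the 11582 genes at 10 CPM or more in any group, and it was 4.65 without replicate 1 and 4.18 without replicate 2. Kif2c (log2 5.63) and Cenpf (5.31) were near the top with Ccnb1, whose 5.68 rests on 2 NK reads and became 6.47 with 0.1 CPM added and 5.07, below both, with 1 CPM added. Pttg1 (1.63), Cdca8 (2.16) and Incenp (2.33) were at the bottom. In limma voom, with Benjamini-Hochberg adjustment over all genes tested, 3 of the 41 rose, beside 0.289% of genes called higher and 2.04% called lower. Mki67 rose by a log2 fold change of 4.45 (SE 0.409, limma voom adjusted p = 1.3e-24), Top2a by 4.37 (SE 0.487, adjusted p = 1.4e-16) and Incenp by 2.29 (SE 0.503, adjusted p = 0.00044). These are the members with the most reads in NK, 696, 479 and 460. For Ccnb1 the fitted log2 fold change was 6.47 with an SE of 6.39 (limma voom adjusted p = 1.0), and for Pttg1 it was 1.62 with an SE of 2.05 (adjusted p = 1.0). At an unadjusted p under 0.05 there were 10 members and 1312 genes. The spread in this fit comes from the MNK-3 pair alone, and NK and ILC2 are assumed to vary as that pair does. The 3 calls were lost under each of the 3 other library scalings tried, where the fitted log2 fold changes were still 4.23 to 4.56 for Mki67, 4.15 to 4.49 for Top2a and 2.10 to 2.34 for Incenp. Incenp was also lost without the filter on low counts (limma voom adjusted p = 0.15). The order of the libraries held for all 41 genes.

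Both MNK-3 and ILC2 were cultured in cytokines, and their comparison gave smaller ratios. The median log2 ratio of MNK-3 over ILC2 was 0.74 for the 41 genes, beside 0.51 for genes at 10 CPM or more and 1.12 for all genes kept. Without MNK-3 replicate 1 these medians were 0.86, 0.26 and 0.0, and without replicate 2 they were 0.53, 0.58 and 1.64. Whether the list lay above or below the other genes thus changed with the replicate left out. At 2-fold or more there were 8 genes higher in MNK-3 (Cenpa, Cenpk, Nuf2, Pttg1, Kif23, Prc1, Anln and Foxm1) and 0 lower, or 19.5% of the list beside 14.4% of the genes tested. The 14.4% are 3644 genes, all of them among the 11582 at 10 CPM or more in any group. With both replicates the list was thus below the share of genes at 10 CPM or more. Of these 8, Pttg1, Kif23, Anln and Foxm1 were at 2-fold or more in both MNK-3 libraries. Cenpk was so in replicate 1 only, and Cenpa, Nuf2 and Prc1 in replicate 2 only. The count of members was 15 without MNK-3 replicate 1 and 5 without replicate 2. The share of all genes at 2-fold was not counted in these settings, so neither count has a background beside it. Top2a and Kif11 lay just under the 2-fold line, at log2 0.99 and 0.97. The SE of the fit was larger for genes with few reads, 1.61 for Cenpk against 0.177 for Mki67, so abundant genes are called more readily. In limma voom 7 of the 41 rose, 17.1% of the list, beside 0.902% of genes called higher and 2.37% called lower. The factor Foxm1 rose by a log2 fold change of 1.51 (SE 0.373, limma voom adjusted p = 0.0027) and Top2a by 0.95 (SE 0.195, adjusted p = 9.3e-05). Mki67 rose by 0.71 (SE 0.177, limma voom adjusted p = 0.0034) and the corona gene Cenpf by 0.92 (SE 0.245, adjusted p = 0.0080). Kif11 and Prc1 rose by 0.91 and 1.04 (SE 0.284 and 0.325, limma voom adjusted p = 0.043 and 0.044), and Kif23 was the seventh, at 1.22 (adjusted p = 0.046). For Pttg1, the largest by size with Foxm1, the fitted log2 fold change was 1.55 with an SE of 1.18 (limma voom adjusted p = 1.0), and for Ccnb1, the smallest, it was -0.46 with an SE of 0.491 (adjusted p = 1.0). At an unadjusted p under 0.05 there were 18 members and 2000 genes. All 7 calls were lost with trimmed-mean or median-of-ratios scaling, which move the median of genes at 10 CPM or more to 0.12 and -0.13. The members' median was then 0.40 and 0.19, and 5 members (Birc5, Cdca8, Kif20a, Tpx2 and Ube2c) changed sign under the first and 11 under the second. With factors from abundant genes Top2a alone of the 7 was still called (limma voom adjusted p = 2.2e-07). With reads thinned to the NK total, and in limma trend without weights, Foxm1, Kif23 and Prc1 were still called, whereas Top2a, Mki67, Cenpf and Kif11 were not.

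**Figure D3:**
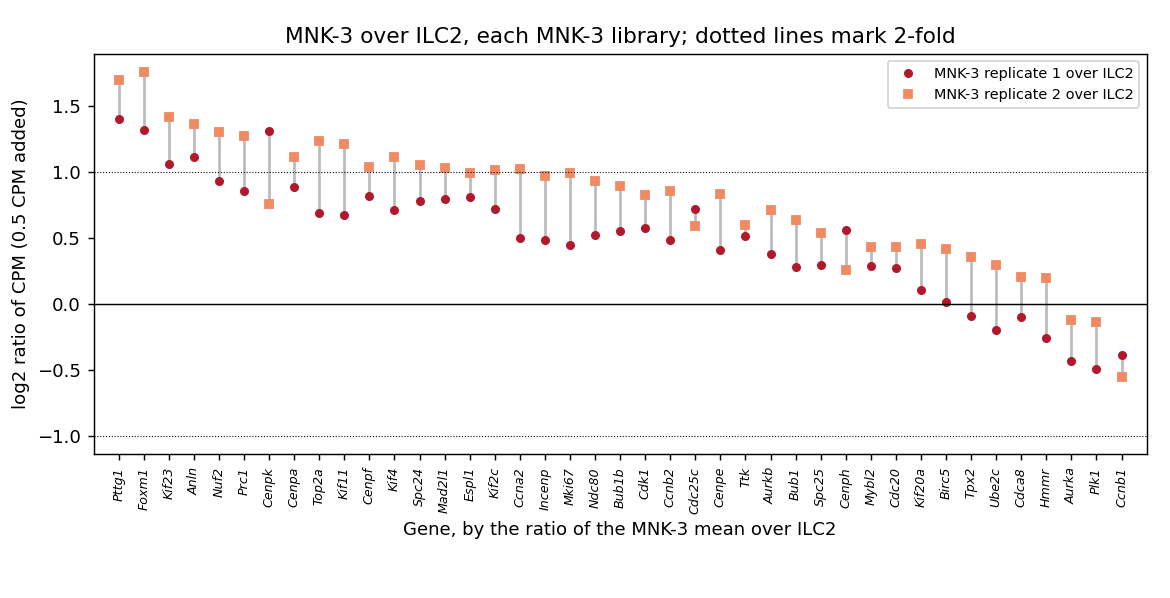
Log2 ratio of MNK-3 over ILC2 for each of the 41 genes, with 0.5 CPM added, drawn for MNK-3 replicate 1 (circles) and replicate 2 (squares) and ordered by the ratio of the MNK-3 mean; dotted lines mark 2-fold. From Pttg1 and Foxm1 at the left, with both libraries above 2-fold, the ratios run down to Aurka, Plk1 and Ccnb1 at the right, with both libraries under ILC2.

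ILC2 were set against NK as the primary cells, expanded in culture and from the spleen. Of the 41 genes, 40 had at least 2-fold more CPM in ILC2, and the exception was Pttg1. Of all genes tested 8.56% did, or 2164 genes, all of them among the 11582 at 10 CPM or more in any group. The median log2 ratio was 3.67, beside -0.00313 for genes at 10 CPM or more. Ccnb1 (6.14), Plk1 (5.07) and Hmmr (5.05) had the largest ratios, and after Pttg1 the smallest were those of Cenpk (1.36) and Incenp (1.58). In limma voom 2 of the 41 rose, beside 0.479% of genes called higher and 0.819% called lower. Mki67 rose by a log2 fold change of 3.75 (SE 0.426, limma voom adjusted p = 3.7e-15) and Top2a by 3.42 (SE 0.506, adjusted p = 1.2e-08). For Ccnb1 the fitted log2 fold change was 6.92 with an SE of 6.40 (limma voom adjusted p = 1.0), and for Pttg1 it was 0.07 with an SE of 2.34 (adjusted p = 1.0). At an unadjusted p under 0.05 there were 7 members and 1039 genes. This comparison has 1 library in each group and no replicate check of its own, and both calls were lost under each of the 3 other scalings tried, where the fitted log2 fold changes were still 3.77 to 4.09 for Mki67 and 3.44 to 3.77 for Top2a. MNK-3 over NK and ILC2 over NK share the NK library.

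The other genes of the pathway were taken from a list of 111, of which 109 were measured. The 78 other mitosis genes had a median log2 ratio of 2.75 for MNK-3 over NK, 0.84 for MNK-3 over ILC2 and 2.15 for ILC2 over NK. At 2-fold or more, 16.2%, 14.4% and 8.56% of all genes tested were higher in the same comparisons. These are 4102, 3644 and 2164 genes, all of them among the 11582 at 10 CPM or more in any group. Of the 78, 24 were higher and 0 lower in MNK-3 than in ILC2, near the share of those 11582 genes. In MNK-3 61 were higher and 1 lower than in NK, and in ILC2 50 were higher and 1 lower than in NK. The one on the other side was Arhgef2, a gene with roles outside mitosis, which fell in MNK-3 (log2 fold change -1.59, SE 0.301, limma voom adjusted p = 1.5e-05) and in ILC2 (-1.68, SE 0.393, adjusted p = 0.0027) relative to NK. It had 164 and 166 CPM in the MNK-3 libraries and 155 CPM in ILC2, against 495 CPM in NK. Ckap5, a microtubule polymerase, rose in MNK-3 relative to NK (log2 fold change 1.30, SE 0.397, limma voom adjusted p = 0.048). Racgap1, the partner of Kif23 in centralspindlin, rose in MNK-3 relative to ILC2 (1.40, SE 0.331, limma voom adjusted p = 0.0014), with 338 and 459 CPM in MNK-3, 147 CPM in ILC2 and 181 CPM in NK. Unlike Kif23, Racgap1 was not lower in NK than in ILC2. The calls of Arhgef2, Ckap5 and Racgap1 were lost under each of the 3 other scalings tried, and that of Ckap5 also without the filter (limma voom adjusted p = 0.81).

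By role, the largest ratios of MNK-3 over NK were those of Cep55 (log2 6.30), which completes abscission, the centrosomal kinase gene Nek2 (5.86), Kntc1 of the corona (5.33), the spindle gene Ckap2l (5.30), Cenpm of the inner kinetochore (5.10) and the cohesin protector Sgo1 (4.04). Cep55 had 132 and 184 CPM in the MNK-3 libraries, 76.4 CPM in ILC2 and 1.51 CPM in NK. With 2.16 CPM of Nek2 and 1.94 CPM of Cenpm in NK, the largest ratios over NK rest on few NK reads. For MNK-3 over NK the fitted log2 fold change was 6.55 with an SE of 5.41 for Cep55, and 6.05 with an SE of 5.01 for Nek2. Of MNK-3 over ILC2, the largest were Itgb3bp (2.22), which encodes the inner kinetochore protein CENP-R, and the outer kinetochore gene Nsl1 (1.94), followed by the centrobin gene Cntrob (1.80), Haspin (1.42), Cdc25b (1.33) and Ckap2 (1.03). Of ILC2 over NK, they were Cep55 (5.26), Cdca3 (4.97), Nek2 (4.65), Kntc1 (4.39), Sgo1 (3.25) and Cenpm (3.06). Itgb3bp had 25.7 and 12.1 CPM in the MNK-3 replicates, so its ratio rests more on replicate 1.

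Core subunits of the anaphase-promoting complex, the ligase that Cdc20 and Ube2c serve, lay much closer together across the cell types. The list of 16 genes also held Fzr1 and Ube2s. Its median log2 ratio was 0.64 for MNK-3 over NK, 0.42 for MNK-3 over ILC2 and 0.21 for ILC2 over NK. Genes at 10 CPM or more had 0.58, 0.51 and -0.00313. Anapc5 alone of the 16 rose in MNK-3 relative to NK (log2 fold change 1.96, SE 0.472, limma voom adjusted p = 0.0023). The largest ratio of the complex for MNK-3 over ILC2 was that of Anapc11 (1.46) and for ILC2 over NK that of Cdc27 (1.40). A list of 15 MuvB, DREAM and NF-Y genes, regulators of these promoters, had medians of 0.86, 0.82 and 0.08 in the same comparisons. In MNK-3 relative to ILC2 the pocket protein gene Rbl1 rose (1.25, SE 0.344, limma voom adjusted p = 0.012) and the E2F factor E2f4 fell (-1.05, SE 0.332, adjusted p = 0.0499988). Rbl1 had 274 and 377 CPM in the MNK-3 libraries, 132 CPM in ILC2 and 120.1 CPM in NK, and E2f4 had 92.4 and 104 CPM in the MNK-3 libraries, 201 CPM in ILC2 and 124 CPM in NK. The calls of Anapc5, Rbl1 and E2f4 were lost under each of the 3 other scalings tried and without the filter, where the limma voom adjusted p was 0.28, 0.14 and 0.16. Mybl1 (A-Myb) had the largest ratio of this list in all 3 comparisons (4.71, 2.12 and 2.59), with 45.0 and 47.9 CPM in MNK-3, 10.3 CPM in ILC2 and 1.29 CPM in NK. For comparison, 30 DNA replication genes had medians of 2.65, 0.85 and 1.88, with 28, 8 and 24 of them at 2-fold or more higher. This stands beside the same 16.2%, 14.4% and 8.56% of all genes tested, or 4102, 3644 and 2164 of the 11582 at 10 CPM or more in any group. For MNK-3 over ILC2, the 8 of 30 were not above the share of those 11582 genes.

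**Figure D4:**
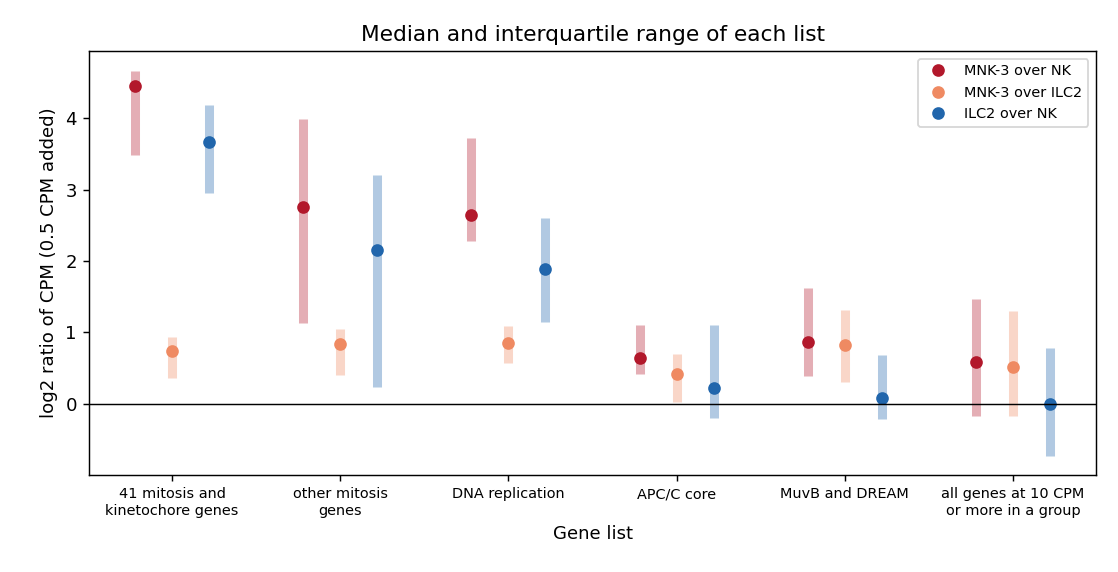
Median (points) and interquartile range (bars) of the log2 ratio of CPM, with 0.5 CPM added, for the 41 genes, the 78 other mitosis genes, 30 replication genes, 16 genes of the anaphase-promoting complex, 15 MuvB, DREAM and NF-Y genes (marked MuvB and DREAM) and all genes at 10 CPM or more in any group. The 41 genes have medians of 4.45 for MNK-3 over NK and 3.67 for ILC2 over NK, the highest of the lists drawn, while for MNK-3 over ILC2 the lists lie between 0.42 and 0.85.

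Within the list, the order of the genes by CPM was nearly the same in the MNK-3 libraries, with a Spearman rank correlation of 0.990 across the 41 genes, and it was 0.832 and 0.862 between the MNK-3 libraries and ILC2. Against NK the correlation was 0.635 and 0.624 for MNK-3 and 0.519 for ILC2. Genes are not independent replicates, and the CPM of each carries its transcript length in every library, so these values are a description only.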

How the data were processed

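Per the labels' protocols, RNeasy Plus Micro kits gave total RNA with integrity numbers above 9, and stranded total-RNA libraries (SMARTer v2 Pico) were sequenced as pairs of 38 bp reads. These call for 2 technical replicates; whether runs were pooled is not stated. The authors aligned with STAR 2.7.8a and counted with HTSeq on mm10/GRCm38, per the submitters' processing notes; the strand setting and gene set are not given in the sources used here. The deposited values are whole-number read counts per gene, not normalized, and are recorded as an other unit because the tables are tab-separated under a name for comma-separated files.

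The 30731 genes in all tables were used (31053 listed for MNK-3, 53465 for ILC2 and NK). The genes left out held 0.131% and 0.0399% of gene reads in MNK-3, 1.89% in ILC2 and 3.05% in NK. Entries naming no gene were left out. CPM is per 1000000 reads in the shared genes. Symbols and lengths came from GENCODE M21 and the reference's name table; TPM used the union of annotated exons, which understates genes with long rare isoforms.

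The test was limma voom (limma 3.58.1, R 4.3.3), two-sided, with all 4 libraries in 1 fit of 3 groups, 1 residual degree of freedom and total-read scaling, over 25283 genes that passed a filter (10 reads, scaled by library size, and 15 reads in all); the prior degrees of freedom were infinite, so every SE rests on a spread pooled over genes. A call needed an adjusted p (Benjamini-Hochberg) under 0.05. Sizes are log2 ratios with 0.5 CPM added to each group, MNK-3 entering as the mean of its libraries, and a gene at 2-fold also had 10 CPM or more in the higher group. Intervals for ratios with up to 3 reads are 95% exact intervals.

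The members and lists were chosen with earlier results of these data known. All 41 members are named; fit values are given for called members and for the largest and smallest ratio, and other lists are named by calls and by the largest ratio. Scaling, filter, depth, added CPM, weights, libraries in the fit and each MNK-3 replicate were varied.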

Additional observations from a re-analysis of the deposited data

How the results depend on the processing

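All 41 members stayed above NK in MNK-3 and in ILC2 under every scaling, filter, depth and added CPM tried and without either MNK-3 replicate. But the calls depended on scaling, filter, depth and weights, and the cause was not tested. Members called higher in MNK-3 over NK (3), MNK-3 over ILC2 (7) and ILC2 over NK (2) came to 1, 0 and 0 with trimmed-mean (TMM) factors, 0, 0 and 0 with median-of-ratios factors, 0, 1 and 0 with factors from abundant genes, 2, 3 and 2 without the filter, 23, 5 and 13 with reads thinned to the NK total, and 41, 6 and 39 in limma trend without weights. All genes called higher and lower, in the same order, came to 2 and 130, 1 and 82, 0 and 0 with TMM; 0 and 99, 0 and 50, 0 and 0 with median-of-ratios; 0 and 87, 23 and 221, 8 and 32 with abundant genes; 21 and 368, 76 and 498, 60 and 123 without the filter; 796 and 773, 602 and 636, 564 and 483 with thinned reads; and 2029 and 843, 1321 and 754, 1149 and 734 in limma trend. The 1 member called with TMM was Cenpf, none of the 3; 3 of the 7 were shared with the counts of 5 and 6. Thinning matched read totals only and left 19888 genes to test. With only the libraries compared, the same members were called in the 2 comparisons with MNK-3; ILC2 over NK was not fitted so. The members' median log2 ratio for MNK-3 over ILC2 moved to 0.40 (TMM) and 0.19 (median-of-ratios), with 2 and 2 members at 2-fold higher and, under median-of-ratios, 1 lower. For ILC2 over NK it moved to 4.01 (TMM) and 4.02 (median-of-ratios). Leaving out one MNK-3 replicate gave medians of 4.18 to 4.65 over NK and 0.53 to 0.86 over ILC2, with 5 to 15 members at 2-fold over ILC2. The share of all genes at 2-fold was not counted under these scalings or without a replicate. The sign changed for Hmmr without replicate 1 and for Cdca8, Tpx2 and Ube2c without replicate 2. No test is left without a replicate. No paired analysis was possible because ILC2 and NK have 1 library each. In NK, with the fewest reads, 3 reads amount to 0.647 CPM, which limits what can be said of Ccnb1 and Cdc25c there.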
